A study of Mus musculus with 8 samples.

Results

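The X-zone is a transient inner layer of the mouse adrenal cortex that lies against the medulla. It descends from the fetal adrenal cortex, regresses in males around puberty and in females during a first pregnancy, and its function is not settled. Its cells are known for an enzyme that breaks down progesterone rather than for making corticosterone. The genes described here are 4 markers of this zone, chosen by symbol: Akr1c18, Pik3c2g, Abcb1b and Thrb. They are 4 of the 18846 gene symbols listed in the deposited tables, and all 4 passed the filter on low counts that left 15361 genes for testing.

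The study asked how loss of Siah1a, which encodes an E3 ubiquitin ligase, affects the organization of the adrenal gland, and it measured RNA by sequencing in 8 whole glands from 8 mice of the 129SVEV strain. The groups, each of 1 female and 1 male mouse by label, were Siah1a-/- mice given ACTH, wild-type mice given ACTH, untreated Siah1a-/- mice and untreated wild-type mice. ACTH, the pituitary hormone that drives corticosteroid secretion, was injected intraperitoneally at 100 µg per kg for 1 hour, and the untreated mice received no injection according to the labels. Ages, a vehicle control and the extent of the Siah1a deletion are not stated in the labels, and because whole glands were sequenced, fewer X-zone cells and less RNA per X-zone cell cannot be told apart.

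The libraries held 8020111 to 29568950 estimated counts, and the values below are CPM, counts scaled to library size, after TMM scaling. Siah1a transcripts were present in all 8 libraries, at 17.4 to 25.2 CPM in the Siah1a-/- libraries against 26.1 to 33.1 CPM in the wild-type libraries (log2 fold change -0.52, SE 0.23, edgeR adjusted p = 0.383), so the counts did not separate the genotypes by test. The untreated library labelled wild-type male went against its sex label, with 388 CPM of Xist, the RNA of the inactive X chromosome, and 0 to 3.06 CPM of each of 4 Y-linked genes. It also held kidney transcripts (10 kidney markers summed to 2179 CPM, against at most 12.2 CPM in the other 7 libraries). The ACTH-treated wild-type female library held liver transcripts (10 liver markers summed to 56795 CPM, against at most 1105 CPM elsewhere). Both are wild-type libraries, so the comparisons over all 8 libraries are also given without them; within a treatment this would leave 1 wild-type library, and such values were not computed. Markers of ovary, another tissue that expresses Akr1c18, were at or near 0, with the 6 of 8 listed in the tables summing to at most 10.3 CPM in any library.

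Akr1c18 encodes the aldo-keto reductase that turns progesterone into a hydroxylated, inactive form and is the classical marker of the X-zone. The gene lies on chr13:4132615-4150646 (GRCm38.p6). Pik3c2g encodes the gamma isoform of the class II phosphoinositide kinases, on chr6:139614072-139969284. Abcb1b encodes a P-glycoprotein, an ABC transporter that pumps steroids and drugs out of cells, on chr5:8798147-8866314. Thrb encodes the thyroid hormone receptor beta, through which thyroid hormone is known to enlarge the mouse X-zone, on chr14:17659225-18040097. Abcb1b overlaps the antisense gene Gm5106 and Thrb overlaps LOC115488350, and since the sources used here do not say whether counting used strand, reads of these pairs cannot be told apart.

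The 180 bases before the start of transcription are shown for Akr1c18, Abcb1b and Thrb, the members with a RefSeq window within 100 bases of the start of their main transcript. They were cut from the RefSeq promoter table for GRCm38.p6 at chr13:4150655-4150834 (minus strand), chr5:8797967-8798146 (plus strand) and chr14:17660712-17660891 (plus strand), each ending just before the most upstream annotated start of the transcript that held most of the gene's counts in the 8 libraries summed. For Pik3c2g, no RefSeq window lay within 100 bases of the start of its main transcript, so none is printed. Capitals mark matches on either strand to TATAA, the core promoter box, to CCAAT, an element common in upstream promoters, or to AGGTCA, the half-site of many nuclear receptors.
Akr1c18: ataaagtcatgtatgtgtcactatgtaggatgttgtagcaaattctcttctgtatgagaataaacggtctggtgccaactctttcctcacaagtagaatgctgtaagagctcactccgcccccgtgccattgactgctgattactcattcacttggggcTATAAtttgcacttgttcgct
Abcb1b: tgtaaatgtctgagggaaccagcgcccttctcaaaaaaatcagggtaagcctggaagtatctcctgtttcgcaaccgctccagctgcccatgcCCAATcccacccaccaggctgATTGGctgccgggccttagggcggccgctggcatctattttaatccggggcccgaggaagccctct
Thrb: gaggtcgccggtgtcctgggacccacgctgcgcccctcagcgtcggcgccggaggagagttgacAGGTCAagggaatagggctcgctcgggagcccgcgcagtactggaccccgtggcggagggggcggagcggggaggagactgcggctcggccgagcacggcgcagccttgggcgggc

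The Akr1c18 window holds 1 TATAA, which begins at position -21 from the start and occurs in 16.8% of 32851 RefSeq promoter windows of the same length. In Abcb1b the CCAAT letters occur once on each strand, at positions -87 and -66, and 27.5% of the windows hold at least 1 match. The Thrb window holds 1 AGGTCA at position -116, a motif found in 10.3% of the windows. No window of the 3 members held CAAGGTCA, the SF-1 motif, which contains AGGTCA and occurs in 0.861% of windows, or TGACG, the CRE half-site, which occurs in 14.8%. The 3 windows thus shared no searched motif, and a match or its absence describes these letters only.

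All 4 markers were lower in Siah1a-/- glands than in wild-type glands, in each of the 4 pairs of mice that share treatment and sex label. Across all tested genes, 12.7% were lower in all 4 such pairs. In the untreated pair labelled male, the Siah1a-/- library held 4.05 CPM of Xist and the wild-type library 388 CPM. Genotype and sex cannot be told apart in that pair. None of the 4 differences passed edgeR's quasi-likelihood test at an adjusted p under 0.05, a threshold that 0.026% of the 15361 genes passed, 1 of them higher and 3 lower in Siah1a-/-. At an unadjusted p under 0.05, 4 of 4 members and 2065 of the tested genes differed. DESeq2 called 4 of 4 members, against 6.16% of all genes, and limma-voom called 1 member, Abcb1b, against 0.703% of all genes.

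Akr1c18 held 618 CPM in the female and 134 CPM in the male ACTH-treated Siah1a-/- library, and 7186 and 1129 CPM in the female and male untreated Siah1a-/- libraries. In wild type it held 6578 and 3266 CPM in the ACTH-treated female and male libraries, and 9273 and 6184 CPM in the untreated female and male libraries. The untreated Siah1a-/- female lay inside the wild-type range, whereas the other 3 Siah1a-/- libraries lay below every wild-type library. The mean was 2267 ± 3304 CPM in Siah1a-/- and 6325 ± 2458 CPM in wild type (SD, n = 4 each), a log2 fold change of -2.73 (SE 0.66, edgeR adjusted p = 0.165).

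By RPKM, which divides by transcript length, Akr1c18 ranked first of all gene symbols in the untreated wild-type female library, at 6922 RPKM. Its rank by RPKM lay between 1 and 7 in the 4 wild-type libraries and in the untreated Siah1a-/- female library it was 3. In the other 3 Siah1a-/- libraries the ranks were 129 in the ACTH-treated female, 716 in the ACTH-treated male and 48 in the untreated male.

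Pik3c2g was undetected in the ACTH-treated Siah1a-/- male library, where 0 counts allow up to 0.213 CPM at a floor of 3 counts. It held 7.58 CPM in the ACTH-treated Siah1a-/- female, 138 CPM in the untreated Siah1a-/- female and 5.05 CPM in the untreated Siah1a-/- male. The wild-type libraries held 355 and 124 CPM in the ACTH-treated female and male and 551 and 397 CPM in the untreated female and male. The genotypes overlapped by 1 value only, the untreated Siah1a-/- female, which stood just above the ACTH-treated wild-type male. The mean was 37.6 ± 66.8 CPM in Siah1a-/- and 357 ± 176 CPM in wild type (SD, n = 4 each), a log2 fold change of -5.52 (SE 1.17, edgeR adjusted p = 0.136). Between the ACTH-treated males the Siah1a-/- library was at least 582-fold lower, taking the floor of 3 counts for that library.

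Abcb1b held 753 and 768 CPM in the ACTH-treated female and male Siah1a-/- libraries and 1476 and 1167 CPM in the untreated female and male Siah1a-/- libraries. In wild type it held 3509 and 3859 CPM in the ACTH-treated female and male and 4912 and 2257 CPM in the untreated female and male. All 4 Siah1a-/- libraries were below all 4 wild-type libraries, a pattern shown by 4.71% of the tested genes. The mean was 1041 ± 348 CPM in Siah1a-/- and 3634 ± 1095 CPM in wild type (SD, n = 4 each), a log2 fold change of -1.84 (SE 0.28, edgeR adjusted p = 0.0882).

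Thrb was the member with the smallest difference. It held 40.4 and 37.3 CPM in the ACTH-treated female and male Siah1a-/- libraries and 118 and 91.9 CPM in the untreated female and male Siah1a-/- libraries. Wild-type values were 161 and 126 CPM in the ACTH-treated female and male and 198 and 143 CPM in the untreated female and male, so for this gene, as for Abcb1b, the genotypes did not overlap. The mean was 72.0 ± 39.7 CPM in Siah1a-/- and 157 ± 30.7 CPM in wild type (SD, n = 4 each), a log2 fold change of -1.28 (SE 0.25, edgeR adjusted p = 0.124).

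**Figure D1:**
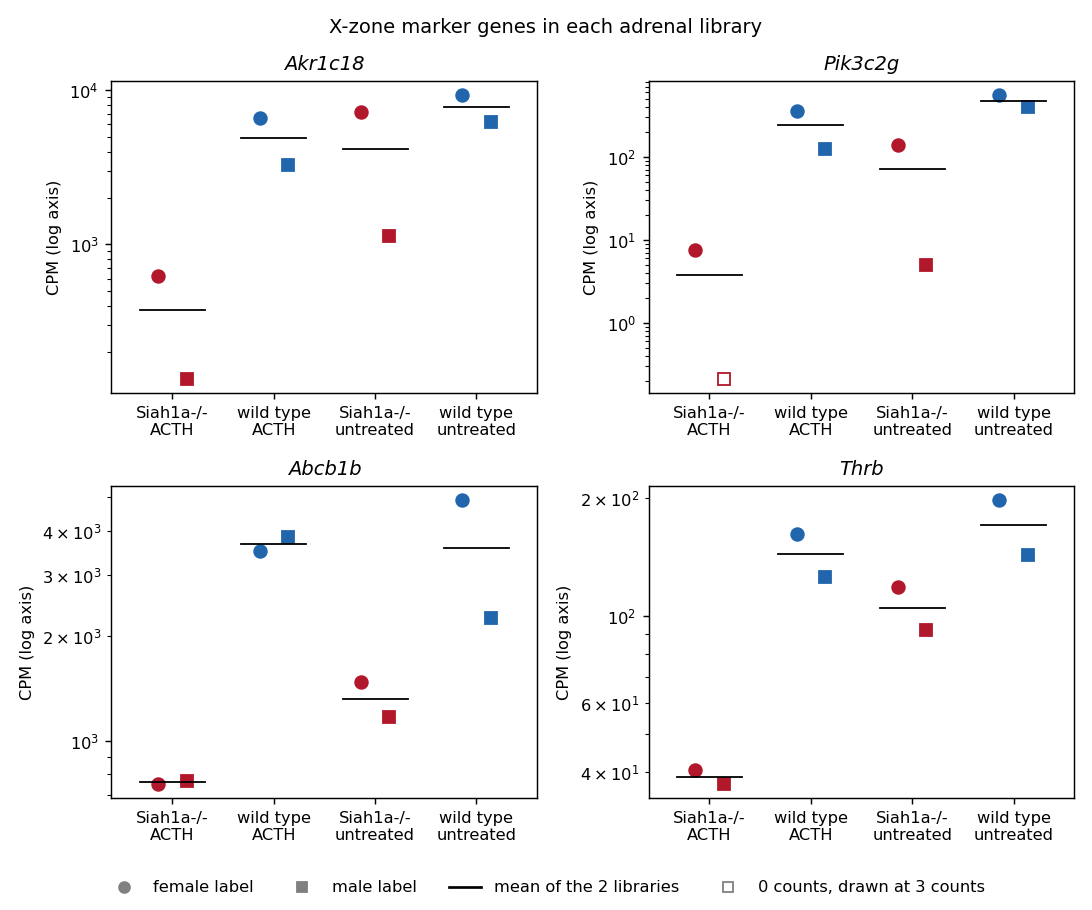
Level of each X-zone marker in the 8 adrenal libraries in CPM on a log axis, by genotype and treatment, with circles for female and squares for male labels and a line at the mean of 2 libraries. The Siah1a-/- points of Abcb1b and Thrb lie below every wild-type point, and the untreated Siah1a-/- female is the highest Siah1a-/- point of all 4 genes, at 7186 CPM for Akr1c18.

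Leaving out both wild-type libraries with kidney or liver transcripts gave log2 fold changes of -2.87 for Akr1c18, -5.53 for Pik3c2g, -2.12 for Abcb1b and -1.32 for Thrb, so the differences were at least as large in the remaining 6 libraries. Abcb1b then passed the test (edgeR adjusted p = 0.0403), as did 2 genes in all, or 0.0134% of those tested. It passed also when only the untreated library labelled wild-type male was left out (edgeR adjusted p = 0.00631), among 24 genes or 0.158%. Without the untreated wild-type female, Akr1c18 and Pik3c2g passed (log2 fold change -3.42, edgeR adjusted p = 0.0385, and -6.72, edgeR adjusted p = 0.0306), among 190 genes or 1.25%.

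By group means, the Siah1a-/- level was a smaller share of the wild-type level after ACTH than in untreated glands for all 4 members. Akr1c18 in Siah1a-/- glands reached 7.64% of the wild-type mean after ACTH, against 53.8% in untreated glands. For Pik3c2g the Siah1a-/- mean was 1.58% of wild type after ACTH and 15.1% in untreated glands, for Abcb1b 20.6% and 36.9%, and for Thrb 27.1% and 61.7%. The untreated shares of Akr1c18 and Pik3c2g rest on the untreated Siah1a-/- female. Without that library, an alternative chosen after seeing the data, the untreated share was 14.6% for Akr1c18, 1.07% for Pik3c2g, 32.6% for Abcb1b and 53.9% for Thrb, so Pik3c2g then stood below its share after ACTH. The untreated Siah1a-/- male left in that comparison held 4.05 CPM of Xist. Both untreated wild-type libraries held more Xist, 388 and 507 CPM, so genotype and sex cannot be told apart in these shares. After ACTH both Siah1a-/- libraries lay below both wild-type libraries for 4 of 4 members, as they did for 24.9% of all genes. Among untreated glands this held for 3 of 4 members, all but Akr1c18, and for 18.1% of all genes.

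Within ACTH-treated glands the log2 fold change between genotypes was -4.01 for Akr1c18 (SE 0.58, edgeR adjusted p = 0.154), -6.94 for Pik3c2g (SE 1.50, edgeR adjusted p = 0.379), -2.28 for Abcb1b (SE 0.36, edgeR adjusted p = 0.176) and -1.87 for Thrb (SE 0.21, edgeR adjusted p = 0.148). None of them passed, against 0.00651% of all genes. Within untreated glands it was -1.41 for Akr1c18 (SE 0.53), -4.21 for Pik3c2g (SE 1.36), -1.40 for Abcb1b (SE 0.35) and -0.69 for Thrb (SE 0.20), each with an edgeR adjusted p of 0.892. No member passed there, and 0% of all genes did. The difference between the treatments, tested as the genotype by treatment term, was -2.60 for Akr1c18 (SE 0.73), -2.73 for Pik3c2g (SE 1.65), -0.88 for Abcb1b (SE 0.49) and -1.18 for Thrb (SE 0.28), and it passed for 0 of 4 members and 0% of all genes (edgeR adjusted p = 1 for each). At an unadjusted p under 0.05 the term differed for 2 of 4 members, Akr1c18 and Thrb, and for 283 genes. Both untreated wild-type libraries held Xist, at 388 and 507 CPM, against 352 and 4.05 CPM in the untreated Siah1a-/- female and male. The fits used the sex labels, so genotype and sex are mixed in the untreated values and in the genotype by treatment term. The smaller shares after ACTH are therefore a description of these 8 mice.

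Set against untreated glands, ACTH-treated glands held less of 3 members in every one of the 4 pairs that share genotype and sex label, with Abcb1b as the exception, and 7.49% of all genes did the same. In Siah1a-/- glands, the ACTH mean was 9.05% of the untreated mean for Akr1c18, 5.32% for Pik3c2g, 57.5% for Abcb1b and 37.0% for Thrb. Without the untreated Siah1a-/- female, again chosen after seeing the data, these shares were 33.3% for Akr1c18, 75.1% for Pik3c2g, 65.1% for Abcb1b and 42.3% for Thrb. They set a treated female and male against the untreated male alone, so treatment and sex label are mixed in them. Within female and male labels, treated Siah1a-/- libraries held 0.0861 and 0.119 times the untreated CPM of Akr1c18. For Abcb1b the ratios were 0.510 and 0.658, and for Thrb 0.341 and 0.406. For Pik3c2g the female ratio was 0.0551, and the treated male held 0 counts against 5.05 CPM. In wild-type glands the ACTH mean was 63.7% of the untreated mean for Akr1c18, 50.6% for Pik3c2g, 103% for Abcb1b and 84.3% for Thrb. The treated wild-type male held 31.8 CPM of Xist, against 388 CPM in the untreated library labelled wild-type male. Treatment and sex cannot be told apart in that pair, and they are mixed in the wild-type shares. Abcb1b in that pair ran the other way, with 3859 CPM after ACTH against 2257 CPM in the untreated library labelled wild-type male. That library held kidney transcripts, and their part in its Abcb1b level was not tested.

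Over all 8 libraries the log2 fold change of ACTH over untreated was -2.07 for Akr1c18 (SE 0.63, edgeR adjusted p = 0.719), -2.69 for Pik3c2g (SE 0.99, edgeR adjusted p = 0.727), -0.34 for Abcb1b (SE 0.27, edgeR adjusted p = 0.903) and -0.83 for Thrb (SE 0.25, edgeR adjusted p = 0.719). It passed for 0 of 4 members and for 0.0195% of all genes, while 3 of 4 members and 938 genes had an unadjusted p under 0.05. Without both libraries that held kidney or liver transcripts the values were -2.37 for Akr1c18, -2.44 for Pik3c2g, -0.64 for Abcb1b and -1.18 for Thrb. Without the untreated Siah1a-/- female they were -1.40 for Akr1c18 and -1.57 for Pik3c2g, and without the untreated wild-type female -2.63 and -3.45. Without the ACTH-treated wild-type male they were -2.58 for Akr1c18 and -3.72 for Pik3c2g, and without the ACTH-treated Siah1a-/- male -1.54 and -2.06. Within Siah1a-/- glands the log2 fold changes were -3.37 for Akr1c18, -4.16 for Pik3c2g, -0.78 for Abcb1b and -1.42 for Thrb. Within wild-type glands they were -0.77 for Akr1c18, -1.43 for Pik3c2g, 0.11 for Abcb1b and -0.24 for Thrb, and 0 of 4 members and 0% of all genes passed in either genotype. At an unadjusted p under 0.05, 3 of 4 members and 649 genes differed within Siah1a-/- glands, and 0 members and 393 genes within wild-type glands. These treatment comparisons reuse the libraries of the genotype comparisons. Each treated and untreated group of a genotype holds 2 mice, so differences between individual mice in the size of the zone and an effect of 1 hour of ACTH cannot be told apart. The fits kept the male label of the untreated wild-type library with 388 CPM of Xist. Sex is thus also mixed into the values that use this library.

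**Figure D2:**
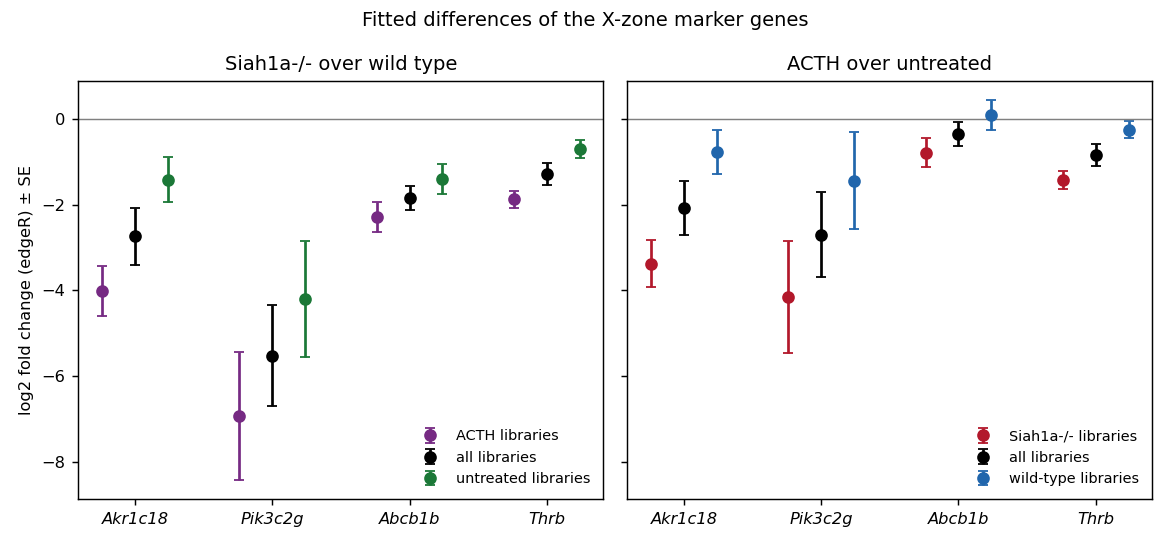
Fitted log2 fold changes with SE from edgeR for each marker, for Siah1a-/- over wild type on the left (ACTH libraries, all libraries, untreated libraries) and for ACTH over untreated on the right (Siah1a-/- libraries, all libraries, wild-type libraries). All genotype values are below 0, from -0.69 for Thrb in untreated glands to -6.94 for Pik3c2g after ACTH, and none passed the adjusted threshold.

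The X-zone persists longer in female than in male mice, and by label 3 of the 4 markers were higher in the female than in the male library of each of the 4 groups, with Abcb1b as the exception. The same held for 6.49% of all genes. The log2 fold change of female over male labels was 1.71 for Akr1c18 (SE 0.60), 2.84 for Pik3c2g (SE 1.03), 0.29 for Abcb1b (SE 0.27) and 0.33 for Thrb (SE 0.25), which passed for 0 of 4 members (edgeR adjusted p = 1 for each) and for 0.026% of all genes. At an unadjusted p under 0.05, 2 of 4 members and 478 genes differed. Without the library that went against its male label the values were 1.59 for Akr1c18, 2.83 for Pik3c2g, 0.01 for Abcb1b and 0.17 for Thrb, and with the library that held liver transcripts also left out the Thrb value was -0.0091. Without the untreated Siah1a-/- female the Akr1c18 value was 0.96 and the Pik3c2g value 1.79, the lowest of the values with 1 library left out. The highest, 2.28 and 3.84, came without the ACTH-treated wild-type male, and without the untreated wild-type female they were 2.16 and 3.74.

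For Akr1c18 and Pik3c2g the female and male libraries stood farther apart in Siah1a-/- than in wild-type glands. The female library held 4.61 times the Akr1c18 CPM of the male among ACTH-treated and 6.36 times among untreated Siah1a-/- glands, against 2.01 times among ACTH-treated and 1.50 times among untreated wild-type glands. For Pik3c2g the ACTH-treated Siah1a-/- female held 7.58 CPM and the male 0 counts, and the untreated Siah1a-/- female held 27.3 times the CPM of the male. The wild-type ratios for this gene were 2.86 after ACTH and 1.39 in untreated glands. Abcb1b did not share the pattern, with female over male ratios of 0.980 after ACTH and 1.26 untreated in Siah1a-/-, and 0.909 after ACTH and 2.18 untreated in wild type. Nor did Thrb, at 1.08 and 1.29 in ACTH-treated and untreated Siah1a-/- and 1.28 and 1.38 in ACTH-treated and untreated wild type. The untreated wild-type pair holds the library that went against its male label, with 388 CPM of Xist, so its ratios, the values within male labels and the genotype by sex term rest on that label. Between genotypes the log2 fold change within male labels was -3.53 for Akr1c18, -7.39 for Pik3c2g, -1.74 for Abcb1b and -1.21 for Thrb, which passed for 0 of 4 members and 0% of genes. Within female labels it was -1.88 for Akr1c18, -3.85 for Pik3c2g, -1.94 for Abcb1b and -1.35 for Thrb, which passed for 0 of 4 members and 0.0391% of genes. The genotype by sex term was 1.65 for Akr1c18 (SE 1.03) and 3.54 for Pik3c2g (SE 1.43), and -0.21 and -0.14 for Abcb1b and Thrb. It passed for 0 of 4 members (edgeR adjusted p = 1 for each) and for 0.013% of genes, and 1 of 4 members, Pik3c2g, and 525 genes had an unadjusted p under 0.05.

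The 4 markers did not keep a fixed proportion to each other. In RPKM, Pik3c2g stood at 0.405% and 0% of Akr1c18 in the ACTH-treated female and male Siah1a-/- libraries and at 0.633% and 0.148% in the untreated ones. In wild type it stood at 1.78% and 1.26% of Akr1c18 in the ACTH-treated female and male libraries and at 1.96% and 2.10% in the untreated ones, so every Siah1a-/- proportion was below every wild-type proportion. How many other gene ratios separate the genotypes in this way was not computed. The Siah1a-/- proportions rest on 99 and 0 Pik3c2g counts in the ACTH-treated female and male, and 1694 and 76 in the untreated ones. The RPKM of Akr1c18 was 0.647 to 18.1 times that of Abcb1b over the Siah1a-/- libraries and 3.14 to 10.2 times over the wild-type libraries. That ratio therefore overlapped between genotypes, and the untreated Siah1a-/- female had the highest of all 8.

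Across the 8 libraries the log2 CPM of Akr1c18 and Pik3c2g followed each other most closely of the 6 pairs of members by Pearson r (0.978), and Akr1c18 and Abcb1b least (0.808). By Spearman's rho the order differed, with 0.929 for Pik3c2g and Thrb, 0.905 for Abcb1b and Thrb and 0.881 for Akr1c18 and Pik3c2g. By Pearson r the gene most like Pik3c2g was Pik3r1, a regulatory subunit of the class I PI3K enzymes (r = 0.993, n = 8). Its levels were 119 and 59.3 CPM in the ACTH-treated female and male Siah1a-/- libraries and 198 and 110 CPM in the untreated Siah1a-/- female and male. In wild type Pik3r1 held 226 and 197 CPM in the ACTH-treated female and male and 282 and 216 CPM in the untreated female and male (log2 fold change -1.04, SE 0.20, edgeR adjusted p = 0.112). After Pik3c2g, the genes most like Akr1c18 were Il34, a ligand of the CSF-1 receptor, Pik3r1, Retsat, a retinol saturase, and Taco1 (r = 0.974 to 0.977). Besides Pik3r1 and Akr1c18, those most like Pik3c2g were Lhfpl2, Retsat and Tgfbrap1 (r = 0.977 to 0.979). Closest to Abcb1b were Fam214a, Hoxb6, Gpam, Tulp4 and Xaf1 (r = 0.968 to 0.985), and closest to Thrb were Idh1, Lrrn1, Pkn3, Slc25a30 and Bhlhe40 (r = 0.976 to 0.989). All these points share the genotype and treatment differences and the same 8 libraries, so the correlations are descriptions.

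Reported transcripts differed in 1 way that touches the levels of Pik3c2g and Thrb. Nearly all Pik3c2g counts lay on the transcript starting at chr6:139843648, and the form starting upstream at chr6:139715861 took 3.78% in the library with kidney transcripts, 1.77% in the library with liver transcripts and at most 0.00241% in the other libraries with counts. For Thrb the form starting downstream at chr14:17981529 took 55.9% of the counts in the library with kidney transcripts, 33.2% in each of the 2 male Siah1a-/- libraries and 2.21% to 12.7% in the other 5. The main form of Thrb, starting at chr14:17660896, held 5.63 and 3.43 RPKM in the ACTH-treated female and male and 14.8 and 8.44 RPKM in the untreated female and male Siah1a-/- libraries. In wild type it held 18.1 and 16.4 RPKM in the ACTH-treated female and male and 26.4 and 9.46 RPKM in the untreated female and male. For this form alone the library with kidney transcripts lay inside the Siah1a-/- range, so the separation of genotypes seen for the summed gene did not hold there. Counts per form are estimates, and how reads shared by forms were split is not stated in the sources used here. Whether the use of the forms itself differed was not tested.

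Relatives of the markers were examined from lists chosen with earlier results of these data known. Of 10 AKR1C and related reductases, 8 were tested, all 8 had negative log2 fold changes between genotypes and 0 passed, with a median of -2.54 over the list, -2.35 without Akr1c18 and -0.04 over all genes. Much of this lay in the library with liver transcripts: Akr1c6, Akr1c14 and Akr1c20 held 431, 173 and 135 CPM there and at most 2.19, 6.66 and 0.487 CPM in any other library. Akr1c19, at 0 in all 4 Siah1a-/- libraries, was seen only in the libraries with liver or kidney transcripts, at 7.56 and 9.17 CPM, and Akr1c12 held 18.9 and 8.35 CPM in the same libraries and under 1 CPM elsewhere. Akr1c21 was close to 0 throughout, at most 0.382 CPM. Reads may be shared between these paralogs, and how multiply mapped reads were counted is not stated in the sources used here.

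Akr1cl and Akr1c13 were present in every gland and ordered the libraries much as Akr1c18 did. Akr1cl, an AKR1C-like reductase, held 640 and 592 CPM in the ACTH-treated and 2461 and 1329 CPM in the untreated female and male Siah1a-/- libraries. Its wild-type values were 1538 and 1040 CPM in the ACTH-treated and 2453 and 1747 CPM in the untreated female and male, giving a log2 fold change of -0.60 (SE 0.22, edgeR adjusted p = 0.293). Akr1c13 averaged 84.4 ± 40.3 CPM in Siah1a-/- and 120 ± 31.3 CPM in wild type (SD, n = 4 each; edgeR adjusted p = 0.216). Akr1e1, of the neighbouring subfamily, averaged 24.5 ± 8.18 CPM in Siah1a-/- and 33.1 ± 7.81 CPM in wild type (SD, n = 4 each; edgeR adjusted p = 0.520).

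The other catalytic PI3K genes had values on both sides of 0. Of the other 7, all tested, 2 had negative and 5 positive values, 0 passed, and the median was 0.06 (0.05 with Pik3c2g). The class II relatives Pik3c2a and Pik3c2b had log2 fold changes of 0.06 (SE 0.14) and -1.18 (SE 0.69), and Pik3ca, the most abundant of the other 7, of 0.17 (SE 0.12). Pik3cb was at -0.09 (SE 0.21), Pik3cd at 0.05 (SE 0.53), Pik3cg at 0.58 (SE 0.60) and Pik3c3 at 0.44 (SE 0.27).

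Abcb1b and its neighbouring copy Abcb1a had log2 fold changes of opposite sign, of which neither passed. Abcb1a, a P-glycoprotein of vessel walls, averaged 49.1 ± 22.4 CPM in Siah1a-/- and 35.4 ± 8.19 CPM in wild type (SD, n = 4 each; log2 fold change 0.40, SE 0.34, edgeR adjusted p = 0.658). Abcb4, the phospholipid exporter of hepatocytes, held 109 CPM in the library with liver transcripts, 8.59 CPM in the library with kidney transcripts and at most 2.44 CPM elsewhere. Of 7 ABC exporters tested, 6 had negative values, 0 passed and the median was -0.14. Because the copies are similar in sequence, the split of reads between Abcb1a and Abcb1b is uncertain.

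**Figure D3:**
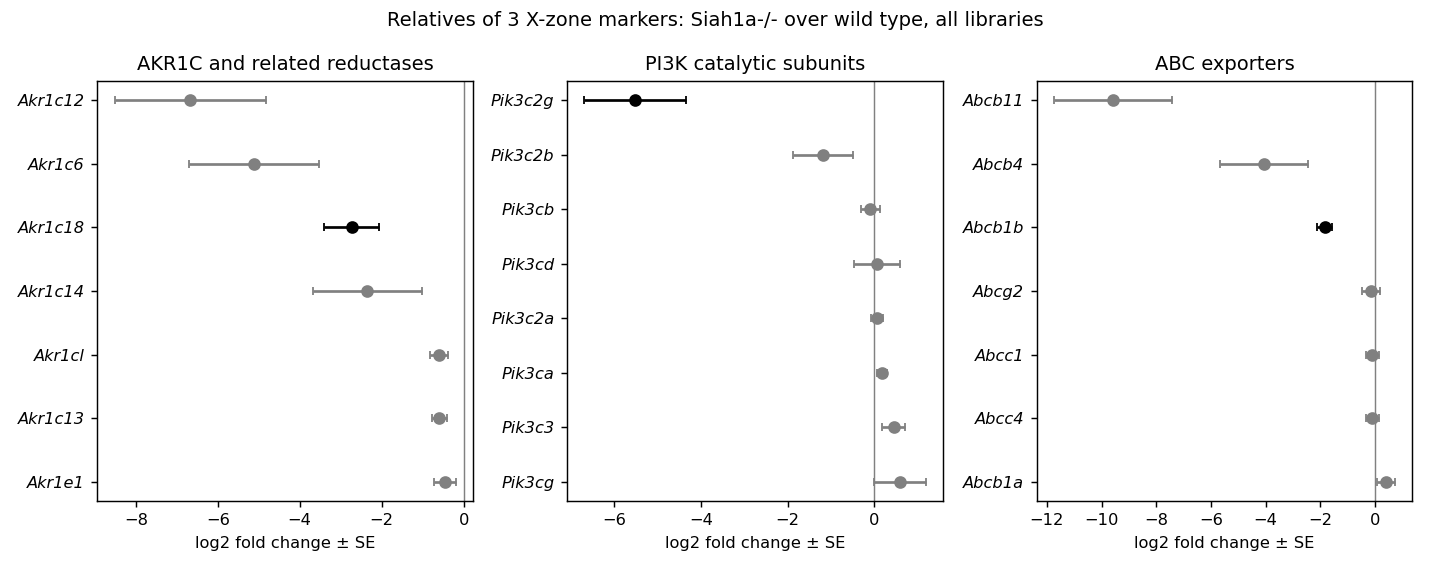
Fitted log2 fold changes with SE, Siah1a-/- over wild type in all libraries, for tested relatives of Akr1c18, Pik3c2g and Abcb1b, with the X-zone markers in black; Akr1c19, at 0 in all Siah1a-/- libraries, is not drawn. Pik3c2g stands at -5.52 while 6 of the other 7 PI3K genes lie between -0.09 and 0.58, and the wide bars of Akr1c6, Akr1c12, Abcb4 and Abcb11 belong to genes high in the library with liver transcripts.

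Of 20 thyroid hormone pathway genes, 19 were tested, 14 had negative and 5 positive values between genotypes, and 0 passed. The median was -0.60, and -0.43 without Thrb, beside -0.04 over all genes. Thra, the other receptor gene, averaged 61.2 ± 19.7 CPM in Siah1a-/- and 52.8 ± 13.9 CPM in wild type (log2 fold change 0.21, SE 0.28, edgeR adjusted p = 0.789). Of the 2 most abundant genes of the list, Thrsp, a lipogenic thyroid hormone target, averaged 149 ± 113 CPM in Siah1a-/- and 459 ± 173 CPM in wild type (-1.77, SE 0.47, edgeR adjusted p = 0.196), and Ncor1, a corepressor, 256 ± 20.2 CPM in Siah1a-/- and 263 ± 63.1 CPM in wild type (-0.01, SE 0.18, edgeR adjusted p = 0.985). Dio1, the deiodinase of liver and kidney, was at 0 in all 4 Siah1a-/- libraries and held 39.8 and 31.2 CPM in the libraries with liver and kidney transcripts, and at most 0.0817 CPM in the other wild-type libraries.

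Genes known to bear on growth or regression of the X-zone were listed as well. Of 20 such genes (steroidogenic transcription factors, activin and inhibin subunits with their signalling partners, and receptors for sex steroids, prolactin and luteinizing hormone), 19 were tested, 7 had negative and 12 positive values, 0 passed, and the median was 0.34. The most abundant, Prkar1a, a regulatory subunit of protein kinase A, averaged 846 ± 122 CPM in Siah1a-/- and 638 ± 64.4 CPM in wild type (0.40, SE 0.14, edgeR adjusted p = 0.285). Prlr, the prolactin receptor, averaged 618 ± 165 CPM in Siah1a-/- and 480 ± 84.2 CPM in wild type (0.34, SE 0.22, edgeR adjusted p = 0.560). The values of the list ran from -2.90 for Wt1, a gene of low level (0.342 CPM in Siah1a-/-, 2.34 CPM in wild type), to 1.75 for Inha. Inha, an inhibin subunit named here after its values were seen, averaged 142 ± 26.9 CPM in Siah1a-/- and 44.0 ± 16.1 CPM in wild type (SE 0.27, edgeR adjusted p = 0.0908).

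Markers of the neighbouring layers were also set beside the X-zone markers, as medians of log2 fold change between genotypes. The median was 0.74 over 11 genes of the zona fasciculata, the corticosterone-making layer, 1.21 over 8 genes of the zona glomerulosa, the aldosterone-making layer, and 0.98 over 12 genes of the chromaffin medulla. The values were positive for 9 of 11, 8 of 8 and 11 of 12 genes of these lists, and 0 passed in each. Among them Star, the cholesterol carrier of steroid synthesis, averaged 15566 ± 2547 CPM in Siah1a-/- and 14528 ± 3540 CPM in wild type, and Akr1b7, an aldo-keto reductase of the fasciculata, 17844 ± 7695 CPM in Siah1a-/- and 6509 ± 1716 CPM in wild type (SD, n = 4 each; log2 fold change 1.40, SE 0.24, edgeR adjusted p = 0.0997). In the glomerulosa list the most abundant genes were Dab2 (756 ± 214 CPM in Siah1a-/-, 450 ± 127 CPM in wild type) and Agtr1a, the angiotensin receptor (350 ± 116 CPM in Siah1a-/-, 150 ± 57.2 CPM in wild type). In the medulla list they were the granins Chgb (2711 ± 1225 CPM in Siah1a-/-, 1531 ± 479 CPM in wild type) and Chga (1800 ± 828 CPM in Siah1a-/-, 867 ± 238 CPM in wild type). The ACTH-treated Siah1a-/- female held 880 CPM of Chgb and 615 CPM of Chga, below every wild-type library. For both granins the other Siah1a-/- libraries lay above every wild-type library. CPM is a share of a library, and the parts that these layers and the X-zone have in each other's levels were not tested.

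Other lists covered the capsule, adipocytes, progesterone and corticoid metabolism, liver and kidney. The 6 capsule genes had a median of -0.09, with 3 values on each side of 0, and the 9 adipocyte genes -0.60, with 6 negative, and 0 passed in each. The most abundant capsule genes were Nr2f2 (-0.36) and Pdgfra (0.09), and the most abundant adipocyte genes Fabp4 (0.26) and Ucp1 (-2.50). The 15 genes of progesterone and corticoid metabolism had a median of 0.10 and 0 passed, and Hsd3b1, which makes progesterone, was with Star the most abundant (0.58, SE 0.20, edgeR adjusted p = 0.274). Within this list Akr1d1, a steroid beta-reductase named here after its values were seen, held 15.2 and 24.6 CPM in the ACTH-treated and 175 and 61.0 CPM in the untreated female and male Siah1a-/- libraries. In wild type it held 397 and 117 CPM in the ACTH-treated and 288 and 163 CPM in the untreated female and male (-2.14, SE 0.59, edgeR adjusted p = 0.198), the highest value being that of the library with liver transcripts. Of the 10 liver and 6 tested kidney genes, all had negative values, and 1 liver gene, Azgp1, passed (log2 fold change -5.97, SE 0.61, edgeR adjusted p = 0.0463). Azgp1 held 293 CPM in the library with liver transcripts and at most 3.68 CPM in any other library. It is among the few genes called between genotypes, and it was also called for ACTH and for sex label. Liver and kidney tissues were seen in 1 wild-type library each.

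**Figure D4:**
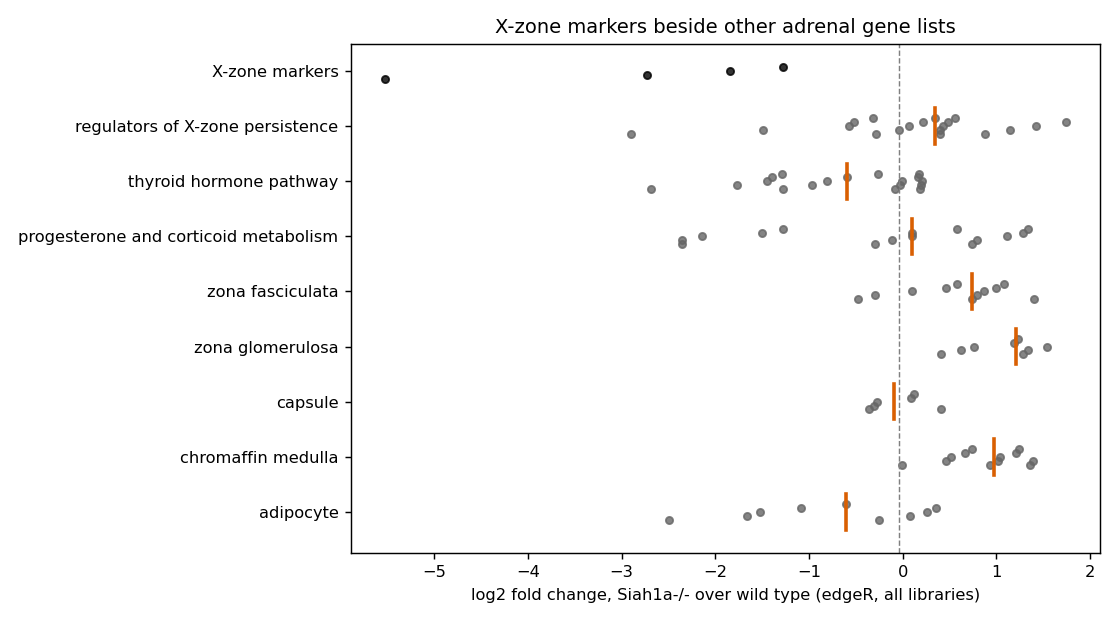
Fitted log2 fold changes, Siah1a-/- over wild type, of the 4 X-zone markers and of the tested genes of other adrenal lists, 1 point per gene, with the list median in orange and the median of all genes dashed; Dio1, at 0 in all Siah1a-/- libraries, is not drawn. The 4 X-zone markers lie between -5.52 and -1.28, while the medians of the fasciculata, glomerulosa and medulla lists are 0.74, 1.21 and 0.98.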

How the data were processed

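RNA of 8 adrenal glands was sequenced as single reads from directional libraries, per the labels' protocols. The submitters' processing notes name FastQC (0.11), TopHat2 (2.0.13), Bowtie2 (2.2.5.0), Partek (6.6) and mm10, without settings. Per the file headers, the deposited tables give an estimated count and an RPKM for every RefSeq transcript. Estimated counts of 28678 transcripts were summed per symbol to 18846 genes and rounded to whole numbers. RPKM was summed per symbol for levels between genes.

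After filtering with filterByExpr (minimum count 10) and TMM scaling, counts were fitted by quasi-likelihood in edgeR 4.0.16 (R 4.3.3) over all 15361 tested genes, with Benjamini-Hochberg adjustment at 0.05. The model held genotype, treatment and sex label (4 residual degrees of freedom), and the within-group values came from models with 1 interaction (3 residual degrees of freedom). Each SE was computed from the F statistic of its test. The code was tested on simulated data. Libraries stand for single mice, and floors (3 counts) cover counting error only.

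The 4 genes and the gene lists were chosen with earlier results of these data known, as were the alternatives (DESeq2 1.42.0, limma 3.58.1, other scaling, filters, covariates and sample sets). Named beside the members were their paralogs, the 5 genes most correlated with each, called list genes, or else the 2 most abundant of a list. Sequences are from RefSeq (GRCm38.p6), transcript starts from GENCODE vM21; sex labels were kept as given.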

Additional observations from a re-analysis of the deposited data

Results flagged for a closer look

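In 2 of 24 tests of a single library against the other 3 of its side (4 libraries each), 1 library stood apart. About 1 in 20 such tests would do so by chance if the 4 values were independent and drawn from 1 normal distribution. That rate cannot be applied here. Each side mixes libraries that differ in the other factors, the values were CPM without logs, and the tests share libraries. Both flagged cases were the untreated Siah1a-/- female library among the 4 Siah1a-/- libraries, where it is the only untreated female. It held 7186 CPM of Akr1c18, a gap to the next library of 0.859 of the whole range, and 138 CPM of Pik3c2g, a gap of 0.945 of the range. The other 3 Siah1a-/- libraries held at most 1129 CPM of Akr1c18 and 7.58 CPM of Pik3c2g.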

How the results depend on the processing

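Under all 22 alternatives the genotype log2 fold change of each of the 4 members stayed negative, but which members passed depended on the setting. Leaving out 1 library at a time gave -3.42 to -2.09 for Akr1c18, -6.72 to -4.53 for Pik3c2g, -2.12 to -1.59 for Abcb1b and -1.48 to -1.07 for Thrb, with 0 to 2 members and 0 to 190 genes called; the highest counts came without the untreated wild-type female. Abcb1b passed without a filter on low counts (-1.85), with mice blocked in pairs by treatment and sex label (-1.81), without both wild-type libraries holding kidney or liver transcripts (-2.12) and with limma-voom (-1.82), which called 1 member each. DESeq2 called all 4 members (Akr1c18 -2.74, Pik3c2g -6.08, Abcb1b -1.84, Thrb -1.28). Against 4 genes called, the count was 41 without a filter, 22 with the robust fit, 1 without sex, 69 with the pair block, 27 in untreated and 26 in ACTH libraries alone, 2 without both libraries, 7 without genes high in 1 library, 1 with top transcripts, 947 with DESeq2, 108 with limma-voom, and 1 and 7 with limma on log2(RPKM + 1) and log2(RPKM + 0.1). Pik3c2g, at -5.52 over all libraries, was -2.96 with limma-voom, -4.29 without sex, -4.31 with limma on log2(RPKM + 1), -4.07 in untreated and -7.08 in ACTH libraries alone. RLE scaling changed no member's call. ACTH values stayed negative, with -1.16 for Pik3c2g by limma-voom, and among sex label values only Thrb turned, to -0.0091 without both libraries. No member passed in either comparison. The causes were not tested.

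Per label, 1 mouse stands for each combination of genotype, treatment and sex, so the main tests rest on 3 or 4 residual degrees of freedom. Fits with libraries left out, or of 1 treatment alone, rest on fewer than the 4 of the main model. Pik3c2g at 0 to 138 CPM in Siah1a-/- limits how exactly its fold change can be known. No paired analysis by replicate number was possible because the labels give animals and no shared numbers.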
